A study of Mus musculus with 11 samples.

Results

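Levels of 8 genes for kinases and one phosphatase inhibitor of Purkinje cell plasticity were measured on ribosome-bound RNA from mouse cerebellum. The genes were Camk2a, Camk2b, Camk2d, Camk2g, Camk4, Prkg1, Prkca and Ppp1r17, chosen by gene symbol from 55421 genes in the count tables. Each of the 8 had enough reads to be tested. The KO mice carried Pcp2Cre, Tie2flox/flox and Rpl22HA/HA, and the WT mice carried Pcp2Cre and Rpl22HA/HA without the floxed Tie2 alleles. Both groups therefore carried the Cre driver and the tagged ribosomal protein, and all mice were 56 days old. There were 4 KO and 7 WT libraries, 1 per animal tag, in 3 batches: 2 KO and 1 WT in batch 1, 1 of each in batch 2, and 1 KO and 5 WT in batch 3. Pcp2 drives Cre mainly in Purkinje cells, and both the deletion and the HA tag on ribosomes depend on it.

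Calcium entering a Purkinje cell dendrite binds calmodulin, which activates the CaMKII holoenzyme built from alpha, beta, delta and gamma subunits, and CaMKIV in the nucleus. Long-term depression of the parallel fibre synapse needs protein kinase C alpha, which phosphorylates the AMPA receptor subunit GluA2. It also draws on nitric oxide, cyclic GMP and the cGMP-dependent kinase encoded by Prkg1, whose Purkinje-enriched substrate, the product of Ppp1r17 (G-substrate), inhibits protein phosphatases once phosphorylated. CaMKII beta, unlike alpha, binds filamentous actin, and mice lacking it invert the direction of plasticity at this synapse.

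Promoter windows are shown for the member that passed the test, Camk2b, and for Camk2d and Prkca, the pair of members whose levels were most alike over the libraries. They come from RefSeq (GRCm38.p6), cover 250 bases before to 50 bases after an annotated start, and are written 5′ to 3′ on the gene's strand. Capitals mark the GC box GGGCGG or its reverse complement CCGCCC, with overlapping matches counted. The Camk2b window is chr11:6065699-6065998 on the minus strand, that of Camk2d is chr3:126596701-126597000 on the plus strand, and that of Prkca is chr11:108343839-108344138 on the minus strand.
Camk2b: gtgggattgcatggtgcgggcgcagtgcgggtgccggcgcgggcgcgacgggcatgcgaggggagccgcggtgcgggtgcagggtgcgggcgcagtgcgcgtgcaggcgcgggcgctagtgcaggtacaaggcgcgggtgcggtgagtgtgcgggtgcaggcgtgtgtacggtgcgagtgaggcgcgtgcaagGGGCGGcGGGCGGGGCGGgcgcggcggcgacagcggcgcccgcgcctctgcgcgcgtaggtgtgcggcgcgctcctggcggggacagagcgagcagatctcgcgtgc
Camk2d: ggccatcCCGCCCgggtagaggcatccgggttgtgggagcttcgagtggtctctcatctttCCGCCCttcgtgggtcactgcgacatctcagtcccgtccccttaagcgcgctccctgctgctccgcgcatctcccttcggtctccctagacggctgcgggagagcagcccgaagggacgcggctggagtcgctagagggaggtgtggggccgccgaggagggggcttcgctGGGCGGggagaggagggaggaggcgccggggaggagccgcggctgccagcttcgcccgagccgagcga
Prkca: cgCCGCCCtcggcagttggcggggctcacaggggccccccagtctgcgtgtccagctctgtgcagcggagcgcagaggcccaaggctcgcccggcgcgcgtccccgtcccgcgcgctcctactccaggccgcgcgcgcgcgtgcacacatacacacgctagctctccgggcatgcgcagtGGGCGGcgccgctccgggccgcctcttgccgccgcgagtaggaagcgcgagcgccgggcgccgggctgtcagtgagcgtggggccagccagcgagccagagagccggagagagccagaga
The windows held 3 GC boxes for Camk2b, 3 for Camk2d and 2 for Prkca, and 35.7% of 32851 mouse promoter windows of the same length held at least 1. The palindromic cAMP response element TGACGTCA was in none of the 3 windows and in 1.79% of all windows. GC content was 77.3% for Camk2b, 70.3% for Camk2d and 75.3% for Prkca. In all, windows were examined for 4 of the 8 members, and the other one of these was Prkg1, with a pair of windows that each held 1 GC box. Windows of the remaining members were not examined. A match to these letters describes the window and is not a measured binding site.

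Reads in genes ranged from 2.58 to 4.20 M in KO libraries and from 4.09 to 5.14 M in WT libraries, so depth moved with genotype. The labelled cell type was well represented: the 23 Purkinje cell markers summed to 9266 to 12220 CPM (read counts scaled to the library total) in KO and 9615 to 11162 CPM in WT, and none was at 0 reads in any library. Markers of other cells were present. Upward, 11 of 16 granule cell markers (68.8%) and 10 of 16 markers of Bergmann glia and astrocytes (62.5%) passed the test, and none downward. Of all tested genes 10.9% were called higher and 24.4% in either direction. The summed levels of the granule cell and glial markers were 675 to 1956 and 848 to 2071 CPM in KO, against 497 to 1023 and 731 to 1071 CPM in WT. Oligodendrocyte markers passed upward in 3 of 15 tested genes (20%), with sums of 448 to 1107 CPM in KO and 381 to 841 CPM in WT. Of the tested markers, 3 of 10 for microglia, 1 of 11 for endothelial and mural cells and 3 of 8 for interneurons were higher, and none lower. The part of these cells in the results below was not tested beyond the covariate fits named there. Tek, the gene that encodes Tie2, had 0 to 14 reads per KO library and 0 to 40 per WT library, too few to check the genotype labels. In such pooled tissue, fewer cells of a type and less RNA per cell cannot be told apart.

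Across the 13375 tested genes, 24.4% passed an adjusted p of 0.05 for KO against WT with batch in the model, 10.9% higher and 13.4% lower in KO. These 3257 genes became 335 without KO M456 and 522 without WT M379. Of the 8 members 1 passed, Camk2b, which was lower in KO. This is 12.5% of the members, below the 24.4% of all genes. The median log2 fold change was 0.07 over the members and -0.02 over all tested genes. No member had KO and WT libraries without overlap, against 13.0% of all tested genes. Camk2a, Camk2b and Ppp1r17 kept one sign in all 3 batches, and the other 5 did not. The share of all tested genes that kept one sign was not computed, so this count is a description only.

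**Figure D1:**
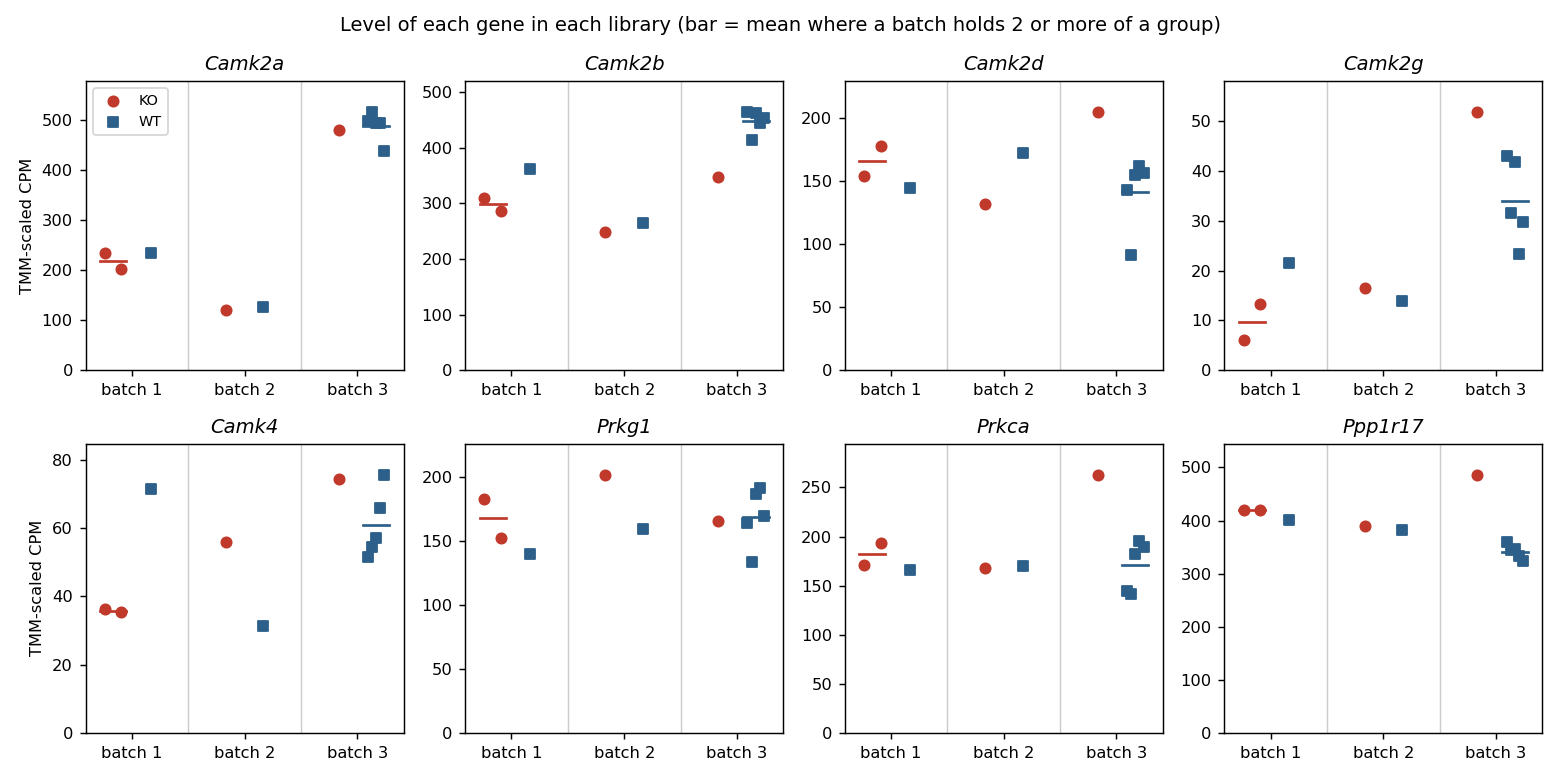
TMM-scaled CPM of each of the 8 genes in each library, KO to the left of WT within each batch, with a bar at the mean where a batch holds 2 or more libraries of a group. Camk2a separates by batch more than by genotype, and pooled over batches the KO and WT points overlap for every gene.

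**Figure D2:**
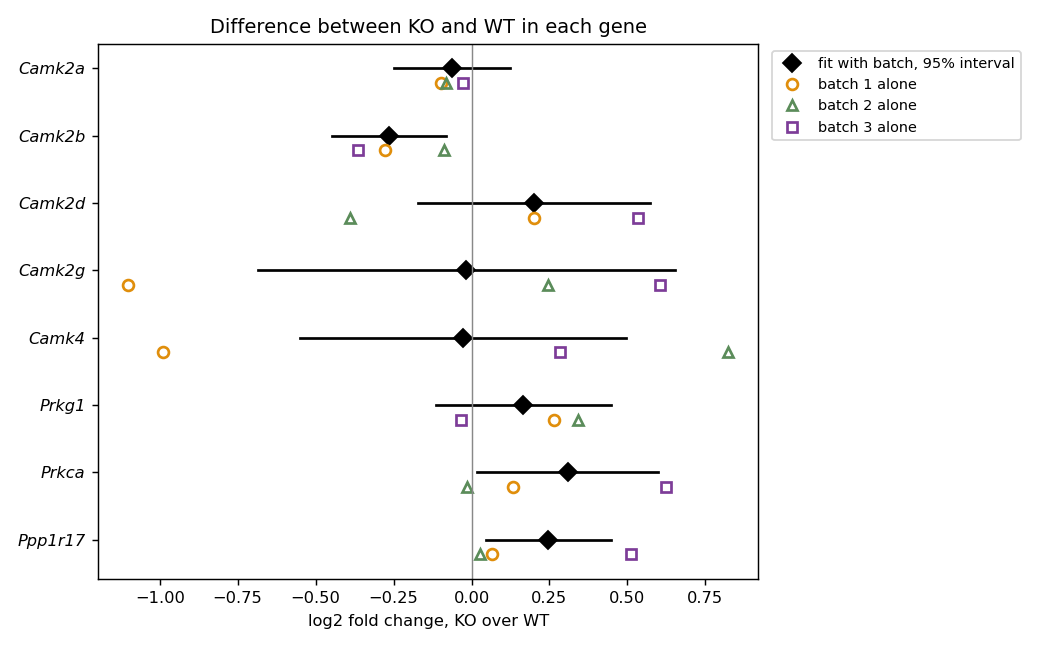
Log2 fold changes, KO over WT, of the 8 genes with 95% confidence intervals from the model with batch, and the ratio within each batch. Camk2b lies at -0.27 and is the member called, and Camk2d, Camk2g, Camk4, Prkca and Prkg1 have batch ratios of both signs.

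Camk2b encodes the beta subunit of CaMKII, which ties the holoenzyme to actin in spines (chromosome 11, 5969629 to 6066357, GRCm38). In batch 1 it had 310 and 286 CPM in KO and 361 CPM in WT. Batch 2 gave 249 CPM in KO and 264 CPM in WT, and batch 3 gave 348 CPM in KO against 464, 414, 462, 445 and 453 CPM in WT. The KO library or libraries lay below every WT library of their own batch in all 3 batches, although the groups overlapped when batches were pooled. Camk2b was lower in KO, by a log2 fold change of -0.27 ± 0.09 (SE, adjusted p = 0.036), or 0.832-fold with a 95% confidence interval of 0.733 to 0.944. The log2 ratios were -0.28 in batch 1, -0.09 in batch 2 and -0.36 in batch 3. The call was lost in 8 of 11 fits that left out 1 library and held without KO M390, WT M386 or WT M476, over a log2 fold change of -0.30 to -0.20 and an adjusted p of 0.0189 to 0.242. With library total as a covariate the value was -0.12 (adjusted p = 0.63), and with the marker score of other cells it was -0.19 (adjusted p = 0.72).

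Camk2a encodes the alpha subunit, the main forebrain form and in cerebellum largely a Purkinje cell product (chromosome 18). Its level was 234 and 203 CPM in KO and 234 CPM in WT in batch 1, and 120 CPM in KO and 127 CPM in WT in batch 2. In batch 3 it was 479.05 CPM in KO and 498, 516, 494, 493.3 and 438 CPM in WT. Each batch had its own level, and the KO and WT libraries of one batch lay close together. The fitted log2 fold change was -0.06 ± 0.09 (SE, adjusted p = 0.63), with a 95% confidence interval of -0.25 to 0.12, and the batch ratios were -0.10, -0.08 and -0.03. Without the batch term the value was -0.63, since 5 of the 7 WT libraries but 1 of the 4 KO libraries were in batch 3.

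That split led to a comparison of batches, added after the levels were seen. For differences between batches 12.6% of the 13375 genes passed an adjusted p of 0.05, and Camk2a had the smallest p of all of them (adjusted p = 6.89e-07). Its fitted level in batch 3 was 2.13-fold that in batch 1 and 3.89-fold that in batch 2. Camk2b followed the same order at a smaller size, with batch 3 at 1.23-fold of batch 1 and 1.57-fold of batch 2 (adjusted p = 0.00298). Camk2g also passed (adjusted p = 0.0264), at 2.66-fold and 2.40-fold. The other 5 members did not pass, with adjusted p of 0.40 to 0.99. Whether the KO against WT difference itself varied between batches was tested with an interaction term, which called 0.00% of the tested genes (0 genes with edgeR, 2306 at an unadjusted p under 0.05). Among members Camk4 had the smallest interaction p, 0.00248 unadjusted and 0.137 adjusted.

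Camk2d encodes the delta subunit (chromosome 3, 126595487 to 126846326). It had 154 and 178 CPM in KO and 144 CPM in WT in batch 1, and 131 CPM in KO and 172 CPM in WT in batch 2. In batch 3 the KO library had 204 CPM, and the WT libraries had 143, 91.2, 154, 161 and 156 CPM. KO was above WT in batches 1 and 3 and below it in batch 2. The log2 fold change of 0.20 ± 0.17 (SE, adjusted p = 0.42) did not pass, and its 95% confidence interval ran from -0.17 to 0.57. Without KO M456, the batch 3 animal, it was -0.06.

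Camk2g, for the gamma subunit (chromosome 14, 20734873 to 20794157), was the most thinly counted member, with 21 to 192 reads per library. Its levels were 6.09 and 13.4 CPM in KO and 21.4 CPM in WT in batch 1, 16.5 CPM in KO and 13.9 CPM in WT in batch 2, and 51.8 CPM in KO and 23.3 to 43.0 CPM in WT in batch 3. KO was lower in batch 1 and higher in the other batches. The log2 fold change was -0.02 ± 0.31 (SE, adjusted p = 0.98), with an interval of -0.69 to 0.65. It was -0.55 without KO M456 and 0.51 without WT M379.

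The composition of the CaMKII message pool was followed through the 4 subunits' reads, not divided by gene length. The log2 ratio of Camk2b to Camk2a reads was 0.40 and 0.50 in KO and 0.62 in WT in batch 1, 1.05 in KO and 1.06 in WT in batch 2, and -0.46 in KO and -0.32 to 0.05 in WT in batch 3. KO lay below every WT library of its batch in all 3 batches. The mean within-batch difference was -0.20, with a two-sided exact permutation p of 0.0278, the smallest that the 36 arrangements within batches allow. Adjusted over 5 measures of the family the p was 0.139, and a single measure at the smallest p could not go lower in this design. Without KO M456 the difference was -0.10 (exact p = 0.167). Batch 3 then held no KO library, and this p is the smallest that the remaining arrangements allow. The Camk2b share differed by -4.31 percentage points, with an exact p of 0.0556 and an adjusted p of 0.139. It was -1.52 points without KO M456 (exact p = 0.5) and -6.53 points without batch 2, where the share was 48.1% in KO and 45.8% in WT. The shares of Camk2a (0.692 points), Camk2d (3.16 points) and Camk2g (0.458 points) had exact p of 0.611, 0.25 and 0.528, and the Camk2d difference was 0.983 points without KO M456 and 5.68 points without batch 2. Over KO and WT libraries together the Camk2a share was 29.9% to 33.3% in batch 1, 22% to 23.2% in batch 2 and 40.6% to 49.0% in batch 3.

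**Figure D3:**
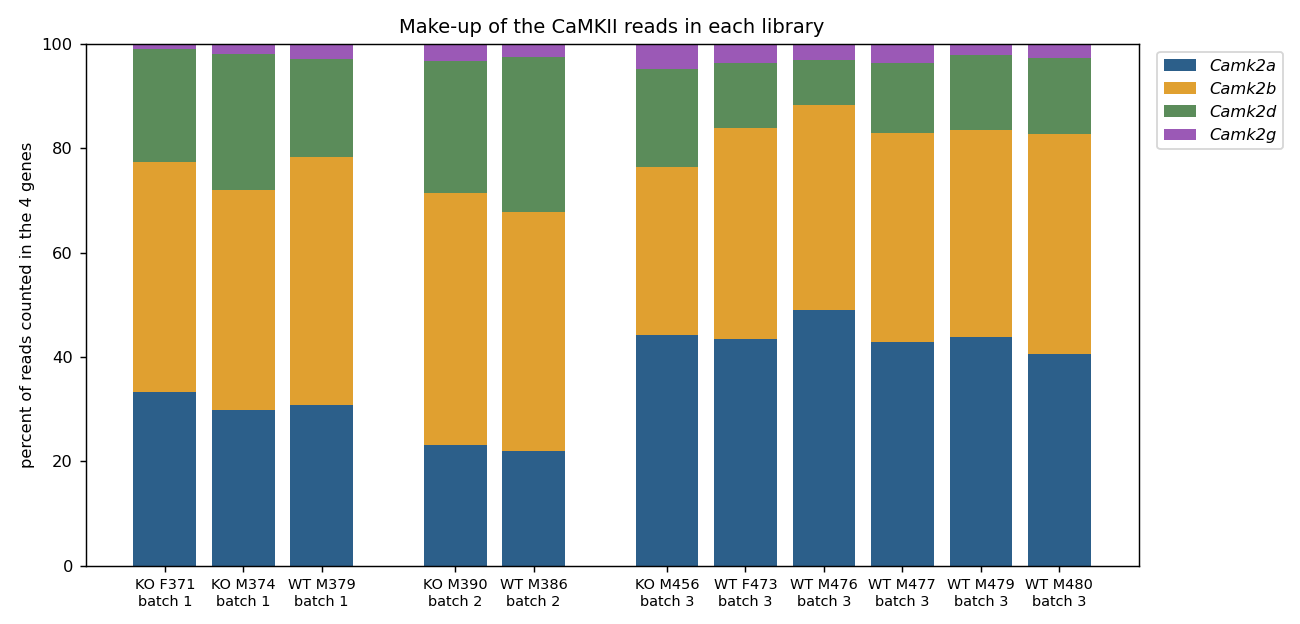
Percentage of all Camk2 reads taken by Camk2a, Camk2b, Camk2d and Camk2g in each library, by batch with KO to the left of WT. The Camk2a share is 40.6% to 49.0% in batch 3 and 22% to 23.2% in batch 2, in KO and WT alike.

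Camk4 encodes CaMKIV, a nuclear kinase that phosphorylates CREB (chromosome 18). It had 36.3 and 35.3 CPM in KO and 71.5 CPM in WT in batch 1, but 56 CPM in KO and 31.4 CPM in WT in batch 2. In batch 3 it had 74.3 CPM in KO and 51.5 to 75.6 CPM in WT. KO was thus lower in batch 1, higher in batch 2 and inside the WT range in batch 3, and the log2 ratios were -0.99, 0.82 and 0.28. The joint fit averaged these to -0.03 ± 0.25 (SE, adjusted p = 0.95), with an interval of -0.55 to 0.50. The value without WT M379, the one WT library of batch 1, was 0.51.

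Prkg1 encodes the cGMP-dependent kinase (chromosome 19, 30564487 to 31765268), and the protein-coding gene Cstf2t lies within its span. It had 183 and 153 CPM in KO and 140 CPM in WT in batch 1, 202 CPM in KO and 159 CPM in WT in batch 2, and 165 CPM in KO and 134 to 191 CPM in WT in batch 3. KO was above WT in batches 1 and 2 and within the WT range in batch 3. The log2 fold change was 0.17 ± 0.13 (SE, adjusted p = 0.37), with an interval of -0.11 to 0.45. Prkg1 stayed positive and uncalled in all 23 alternative settings, from 0.11 to 0.48.

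Prkca encodes protein kinase C alpha (chromosome 11, 107933387 to 108343888). Its levels were 171 and 193 CPM in KO and 166 CPM in WT in batch 1, and 168 CPM in KO and 170 CPM in WT in batch 2. Batch 3 had 263 CPM in KO, against 144, 141, 183, 196 and 189 CPM in WT. The batch 3 KO library, KO M456, was the highest of all 11, and the batch 2 animals were nearly level. The log2 fold change of 0.31 ± 0.14 (SE) had an adjusted p of 0.11 and did not pass, with an interval of 0.02 to 0.60. It was 0.07 without KO M456. Without batch 2, or without either of its libraries, it was 0.44 and passed (adjusted p = 0.0288 to 0.0310). Calls rose across the whole table in those fits, to 4615 to 4649 genes against 3257 with all libraries.

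Ppp1r17 encodes the phosphatase inhibitor that Prkg1 phosphorylates (chromosome 6, 56017497 to 56032689). It had 421 and 421 CPM in KO and 402 CPM in WT in batch 1, and 391 CPM in KO and 383 CPM in WT in batch 2. In batch 3 it had 486 CPM in KO, against 359, 344, 346, 333 and 323 CPM in WT. KO was above WT in all batches, with log2 ratios of 0.07 (batch 1), 0.03 (batch 2) and 0.51 (batch 3, where KO M456 is the one KO library). The log2 fold change was 0.25 ± 0.09 (SE, adjusted p = 0.066), which did not pass, with an interval of 0.05 to 0.45. Without KO M456 it was 0.05. Without batch 2 or either of its libraries it was 0.34 and passed (adjusted p = 0.0168 to 0.0185), in fits that called 4615 to 4649 genes. Without WT M476 it was 0.27 (adjusted p = 0.0386), in a fit that called 4054 genes. With all libraries 3257 genes were called. With library total as a covariate the Ppp1r17 value was -0.03. The WT libraries of Ppp1r17 were the least spread of any member's, with a coefficient of variation of 7.87%, against 12.4% to 38.8% for the other 7.

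The raw reads of Ppp1r17 moved little with depth: 1480 to 1668 reads in WT libraries of 4.09 to 5.14 M reads, and 1211 in KO M456 at 2.58 M. This was not particular to Ppp1r17. The Purkinje cell markers Calb1 and Car8 had 3453 to 3710 and 3061 to 3304 reads in WT libraries, and 2887 and 2794 in KO M456. Within the 7 WT libraries the log2 CPM of Ppp1r17 changed by -0.64 ± 0.28 (SE) per doubling of the library total. Pearson's r was -0.713 (exact permutation p = 0.0738) and Spearman's rho was -0.643 (exact permutation p = 0.139). With the 2 libraries of most extreme total left out r was -0.989, and within batch 3 the slope was -0.29. Prkg1 went the other way, with a slope of 1.32 ± 0.38, r = 0.84 (exact permutation p = 0.0198) and rho = 0.893 (exact permutation p = 0.0123), and r was 0.946 without the 2 farthest libraries. Prkca had a slope of 1.10 ± 0.44, r = 0.746 (exact permutation p = 0.0605) and rho = 0.857 (exact permutation p = 0.0238), with r = 0.528 without the 2 farthest. None of the 8 relations passed after adjustment, the smallest adjusted p being 0.159 for r and 0.0952 for rho. The 2 libraries left out, WT M480 and WT M476, were both in batch 3. Among the rest, WT M379 of batch 1 and WT M386 of batch 2 had the smallest totals. Depth and batch therefore cannot be told apart in the r values without the 2 farthest libraries. 

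**Figure D4:**
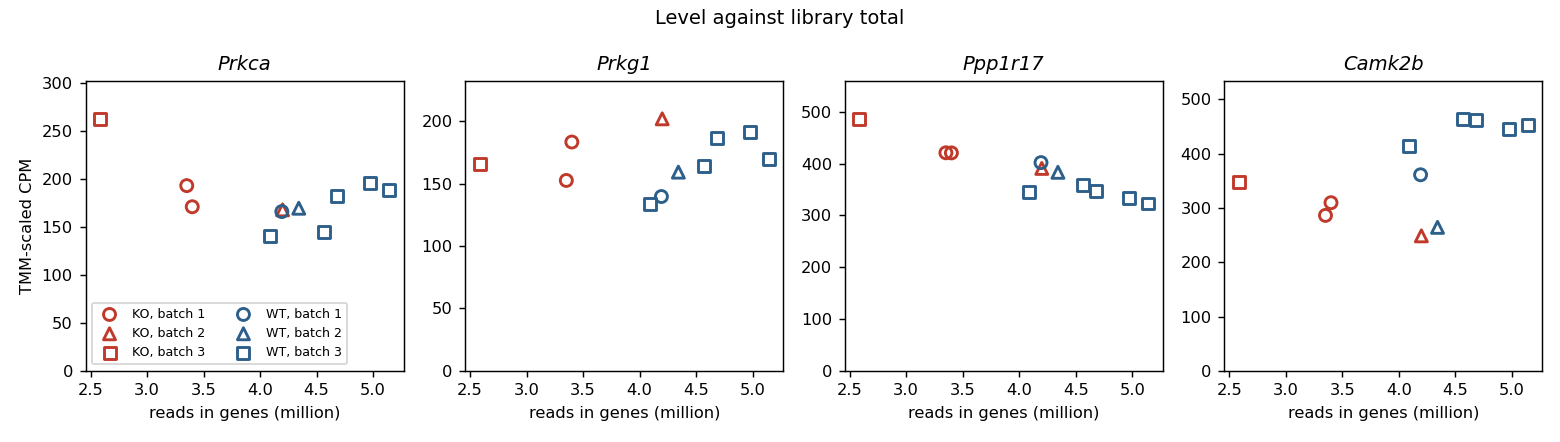
TMM-scaled CPM against reads in genes (M) for Prkca, Prkg1, Ppp1r17 and Camk2b in each library, coloured by genotype with one marker shape per batch. KO M456 at 2.58 M reads is the highest library for Prkca and Ppp1r17.

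The genes whose batch-centred log2 CPM was most like each member's over the 11 libraries were ranked by Pearson's r among 8729 genes of at least 20 CPM, as a description with no test. These values share the genotype shift and the depth differences. Ppp1r17 was most like Car8 (r = 0.995), Ywhab (0.994) and Calb1 (0.992). Car8 and Calb1 are Purkinje cell markers, and Car8 had 889, 887, 753 and 1122 CPM in KO and 650 to 796 CPM in WT. Both passed upward, but the 23 Purkinje cell markers went both ways. Of these, 4 were higher and 3 lower in KO (30.4% called, against 24.4% of all tested genes), with a median log2 fold change of -0.07. Camk2b was most like Camta2 (0.993), Stac (0.991) and Atg4d (0.987), and Camk2a was most like Uap1l1 (0.967), Rtn2 (0.964) and Naa35 (0.958). Camk2d had Mettl25 (0.970), Nfe2l1 (0.968) and Pcmtd1 (0.968) nearest, and Prkca had Ints6l (0.969), Phf20l1 (0.968) and Ddhd2 (0.965). For Prkg1 the nearest were Pigc (0.957), Agps (0.945) and Vrk1 (0.942). Camk2g was nearest to Snap25 (0.917), Fdft1 (0.910) and Higd1a (0.890), and Camk4 to Sde2 (0.873), Necap2 (0.871) and Uchl5 (0.866). Among members the pair most alike was Camk2d and Prkca (r = 0.826), and the pair most opposed was Camk2b and Ppp1r17 (r = -0.786).

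Partners, opposing phosphatases and targets of the 8 genes were examined in 9 lists that leave the members out. Of 113 tested genes 22 were higher and 12 lower in KO, 30.1% against 24.4% of all tested genes, with a median log2 fold change of 0.13 against -0.02. Without KO M456 the calls were 2 higher and 3 lower, and 4 of the 34 genes remained called: Camk2n1, Marcks, Ppp2r1a and Ppp2r5b. Without WT M379 they were 3 higher and 1 lower, and again 4 remained: Camk2n1, Marcks, Ppp2ca and Pde1b. Calls of genes named in neither set were lost in both cases. Without WT F473 or WT M477 the genes called higher were 13 and 14. With library total as a covariate edgeR called 0 higher and 0 lower (7 and 8 at an unadjusted p under 0.05), and with the marker score 0 and 0 (3 and 4). The granule cell and glial marker sums given above were also highest in KO M456, at 1956 and 2071 CPM.

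In the calmodulin kinase cascade 5 of 20 genes were higher and 2 lower, 35% against 24.4% of all tested genes. Camk2n1, an endogenous peptide inhibitor of CaMKII, had 75.2, 118, 67.3 and 145 CPM in KO and 29.0 to 40.9 CPM in WT, with no overlap. It was higher by a log2 fold change of 1.59 ± 0.21 (SE, adjusted p = 0.0014), and was still called without KO M456 (1.20, adjusted p = 0.0465) and without WT M379 (1.67, adjusted p = 0.0150). Camkk2, the kinase that activates CaMKIV and CaMKI, was higher by 0.44 ± 0.11 (SE, adjusted p = 0.0119). Camk1 was lower by a log2 fold change of -0.74 ± 0.17 and Crtc1, a CREB coactivator, by -0.58 ± 0.14. The KO and WT libraries overlapped for Camkk2, Camk1 and Crtc1. In batch 2 their log2 ratios were 0.12, -0.0009 and -0.007. Crebbp, a CREB coactivator, had 163 ± 17.0 CPM in KO and 192 ± 23.4 CPM in WT (SD, n = 4 and 7) and was not called.

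Around Prkca, 2 of 6 other protein kinase C genes were higher and none lower, 33.3% against 24.4% of all tested genes. Prkce was higher by 0.67 ± 0.18 and Prkci by 0.76 ± 0.22 on the log2 scale, and without KO M456 Prkce was at 0.43. Prkce had 118 ± 16.6 CPM in KO and 70.7 ± 13.5 CPM in WT (SD, n = 4 and 7).

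Around Prkg1, 2 of 9 genes of nitric oxide and cGMP signalling were lower in KO and none was higher, a share of 22.2% against 24.4% of all tested genes. Pde1b, a calmodulin-dependent phosphodiesterase, had 51.7, 43.9, 29.5 and 45.4 CPM in KO and 58.5 to 93.1 CPM in WT, with no overlap (log2 fold change -0.76 ± 0.17, adjusted p = 0.00682). Nos1, the neuronal nitric oxide synthase, was lower by a log2 fold change of -0.64 ± 0.21. Pde5a and Pde9a, which degrade cGMP, were not called. In the cAMP branch 3 of 9 protein kinase A genes were higher and none lower, 33.3% against 24.4% of all tested genes. Prkar1a was higher by 0.32, Prkar2a by 0.55 and Prkacb by 0.44 on the log2 scale. Without KO M456 these values were 0.15 for Prkar1a, 0.30 for Prkar2a and 0.20 for Prkacb (adjusted p of 0.424 to 0.525), and without WT M379 none of the 3 passed (adjusted p of 0.0532 to 0.0892). The batch 2 log2 ratios were 0.07 for Prkar1a, 0.19 for Prkar2a and 0.015 for Prkacb.

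Among the phosphatases, 4 of 8 calcineurin genes were higher and none lower, 50% against 24.4% of all tested genes. The catalytic subunits Ppp3ca (0.35 ± 0.09) and Ppp3cb (0.45 ± 0.12), the regulatory subunit Ppp3r1 (0.33 ± 0.11) and the regulator Rcan1 (0.34 ± 0.11) all passed, and Ppp3ca had 535 ± 52.9 CPM in KO and 396 ± 41.3 CPM in WT (SD, n = 4 and 7). Without KO M456 the log2 fold changes were 0.19 for Ppp3ca, 0.23 for Ppp3cb, 0.15 for Ppp3r1 and 0.20 for Rcan1, and none passed (adjusted p of 0.270 to 0.519). Without WT M379 none of the 4 passed either (adjusted p of 0.0548 to 0.125). Their log2 ratios in batch 2 were 0.08 for Ppp3ca, 0.11 for Ppp3cb, 0.08 for Ppp3r1 and 0.03 for Rcan1. For protein phosphatase 2A 3 of 20 genes were higher and 4 lower (35% called). Its catalytic Ppp2ca was higher (0.52 ± 0.11, or 0.30 without KO M456), and the scaffold Ppp2r1a (-0.56 ± 0.11) and the regulatory Ppp2r5d (-0.75 ± 0.14) and Ppp2r5b (-2.40 ± 0.45) were lower. Ppp2r5b was thinly counted in KO, with 8, 8, 37 and 20 reads (2.32 to 8.74 CPM). Its log2 ratio was -3.62 in batch 1 and -0.83 in batch 2. For protein phosphatase 1 the split was 2 higher and 2 lower of 14 (28.6% called). The catalytic Ppp1ca was lower (-1.29 ± 0.27) and the inhibitor Ppp1r2 higher (0.33 ± 0.11). The KO and WT libraries overlapped for Ppp1ca, and its log2 ratio in batch 2 was -0.20. Ppp1cb and Ppp1r1b were not called.

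Of 14 kinase targets and AMPA receptor genes 3 were higher and 1 lower, 28.6% against 24.4% of all tested genes. Marcks, a classic protein kinase C substrate, had 107, 145, 86.7 and 98 CPM in KO and 33.9 to 46.9 CPM in WT, a log2 fold change of 1.34 ± 0.18 (adjusted p = 0.0014), and the groups did not overlap. Vasp, a substrate of the cGMP kinase, was higher by 0.52 ± 0.18, with 85.0, 74.5, 25 and 79.1 CPM in KO and 28.4 to 54.4 CPM in WT. Syn1, a presynaptic CaMK substrate, was lower by a log2 fold change of -0.58 ± 0.15, or -0.39 without WT M379. Its log2 ratio in batch 2 was -0.07. Gria2, which encodes the GluA2 subunit, had 485 ± 31.7 CPM in KO and 423 ± 42.8 CPM in WT (SD, n = 4 and 7), and was not called. Nsf, an ATPase of receptor traffic, was not called either, at 339 ± 49.6 CPM in KO and 389 ± 32.5 CPM in WT. In the list of the ERK cascade and tyrosine enzymes 0 of 13 genes were higher and 1 lower (7.69% called). There Ptpn4, a tyrosine phosphatase, had 645 ± 41.9 CPM in KO and 560 ± 92.4 CPM in WT (SD, n = 4 and 7) and was not called.

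**Figure D5:**
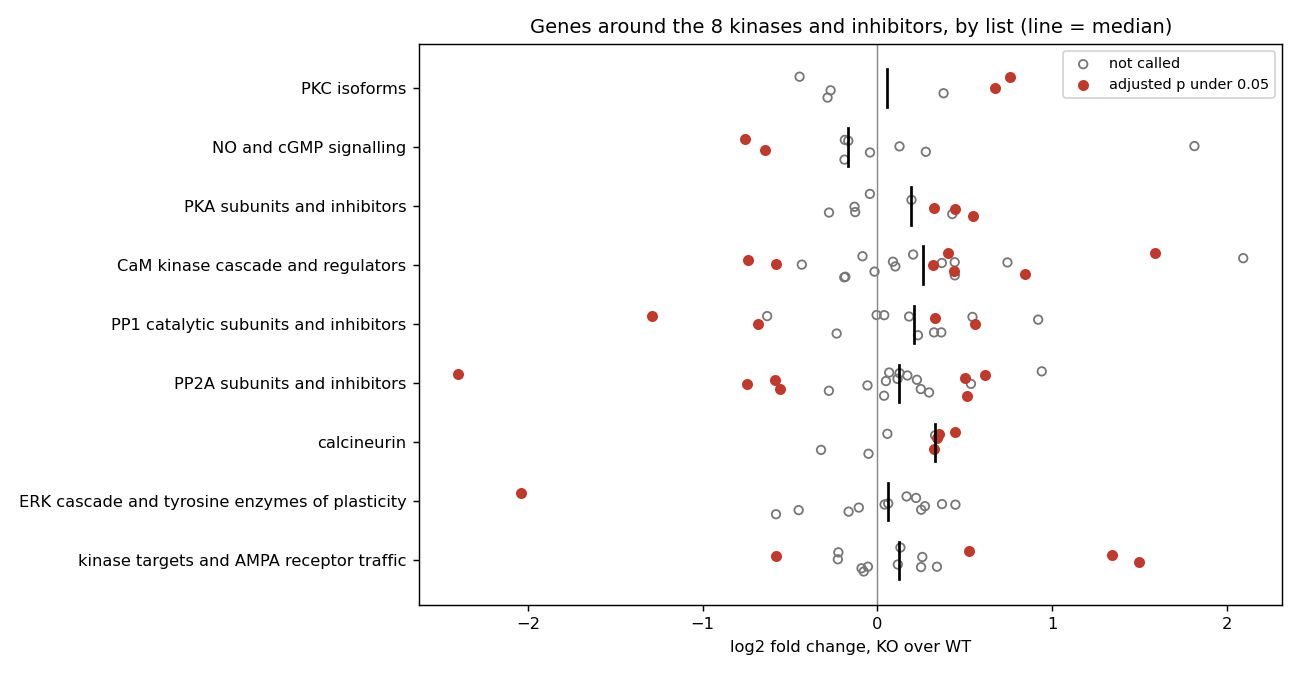
Log2 fold changes, KO over WT, of the tested genes in each of the 9 lists around the members, with called genes filled and a line at each list's median. Called genes lie on both sides of 0, between -2.40 (Ppp2r5b) and 1.59 (Camk2n1).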

How the data were processed

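Ribosome-bound RNA was sequenced from 11 cerebella, 1 library per animal tag, and nothing beyond the tags says how far the replicates are independent, so p-values measure the spread between these libraries. The authors deposited whole-number read counts per gene for each library, made with STAR and HTSeq on GRCm38 per the submitters' processing notes. Not given in the sources used here are versions, strand setting and duplicate removal. The 5 summary lines that name no gene (18.3% to 26.1% of alignments) stayed out of totals and tests. Even the closest libraries, WT M477 and WT M479, gave a chi-square of 2.40 per degree of freedom, so none was counted as a copy.

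From these counts, edgeR 4.0.16 in R 4.3.3 fitted batch and genotype by quasi-likelihood with 7 residual degrees of freedom, after filterByExpr left 13375 of 55421 genes, with TMM scaling. Tests were two-sided, and a gene was called at a Benjamini-Hochberg adjusted p under 0.05 across the whole table. CPM is TMM-scaled and unadjusted for batch. Within-batch ratios used a pseudocount of 0.5 CPM, and similarity a prior count of 2. A standard error is the log2 fold change over the root of its F statistic. Without transcript lengths, levels were not compared between genes, nor shares divided by length. Without molecular identifiers, reads and molecules are not the same.

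The members and lists were chosen with earlier results of these data known. From each list, up to 4 called genes of smallest p and up to 2 uncalled genes of highest CPM were eligible to be named, and for each member the 3 genes most like it. Some list genes are not reported here. Alternatives were DESeq2 1.42.0, limma 3.58.1, other scalings and filters, left-out libraries, covariates and thinning. Tested on simulated data for 13085 genes with 200 changed, the KO against WT model recovered 52% of 2-fold and 80% of 4-fold changes, with 6 false calls.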

Additional observations from a re-analysis of the deposited data

Results flagged for a closer look

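Camk2d in WT M476 stood apart from the other WT libraries: it had 91.2 CPM, against 143 to 172 CPM in the other 6, and the gap was 0.638 of the whole WT range. In all, 28 groups of libraries were examined for such a gap, and chance alone sets apart about 1 group in 20.

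In 4 members the KO libraries lay above every WT library of one batch and below every WT library of another. They were Camk2d, Camk2g, Camk4 and Prkca. The batch with KO below was batch 1 or batch 2, each with 1 WT library. For Prkca it was batch 2, where KO and WT were nearly level at 168 and 170 CPM. With 1 library of each group in batch 2, any unequal values there place KO above or below WT. The share of all tested genes with such a pattern was not computed, so the count is a description only. The test of the difference between batches, the interaction term in edgeR, did not pass for any of the 4 members. The adjusted p was 0.399 for Camk2d, 0.290 for Camk2g, 0.137 for Camk4 and 0.398 for Prkca. Camk4 had the widest split of the 4, with log2 ratios of KO to WT of -0.99 in batch 1 and 0.82 in batch 2.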

How the results depend on the processing

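Each of the 8 fold changes was recomputed in 23 alternative settings. With 1 library left out, the count of genes called ran from 335 (without KO M456) to 4649, and was 522 without WT M379. The members called by edgeR ran from 0 to 3 (0 to 4 at an unadjusted p under 0.05, with 0 of them without KO M456), the called genes of the 9 lists from 2 to 30 higher and 1 to 15 lower, and the log2 fold changes as follows: Camk2a -0.09 to -0.01, Camk2b -0.30 to -0.20, Camk2d -0.058 to 0.42, Camk2g -0.55 to 0.51, Camk4 -0.26 to 0.51, Prkg1 0.13 to 0.30, Prkca 0.068 to 0.44 and Ppp1r17 0.049 to 0.35. The direction changed in 5 of 11 such fits for Camk2g, 4 for Camk4 and 1 for Camk2d. The KO minus WT difference in share of Camk2 reads ran over 0.209 to 1.21 percentage points for Camk2a, -6.53 to -1.52 for Camk2b, 0.983 to 5.68 for Camk2d and -0.46 to 1.39 for Camk2g, and that in the log2 Camk2b to Camk2a ratio over -0.27 to -0.10.

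Without a batch term 2 members were called, with Ppp1r17 at 0.27. Without a filter on low counts 0 were called (3 at an unadjusted p under 0.05), with Camk2b at -0.28 (adjusted p = 0.1004). Without batch 2 there were 3, with Prkca at 0.44 and Ppp1r17 at 0.34, in a fit that called 4643 of 13601 tested genes. In animals tagged M 0 members were called (3 unadjusted), with Camk2b at -0.26, Camk2g at 0.26 and Camk4 at 0.079, and 10 list genes were higher. With library total as a covariate 0 genes, 0 members and 0 list genes were called (1841 genes and 1 member unadjusted), with Camk2b at -0.12, Camk4 at 0.061 and Ppp1r17 at -0.031. With the marker score of other cells as a covariate these counts were also 0 (1177 genes and 0 members unadjusted), with Camk2a at 0.028, Camk2b at -0.19, Camk2d at -0.30 and Camk4 at 0.39. Thinned to the smallest library, 0 members were called (3 unadjusted), with Camk2b at -0.25 and Camk2g at 0.027. The cause of these changes was not tested. The slope on library total in batch 3 alone was -0.56 for Camk2a and -0.99 for Camk2g, opposite to that over 7 WT libraries. Camk2b was called in 10 of the 23 settings.

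Depth differed with genotype and KO M456 was the shallowest library and the single KO animal of batch 3, so depth and genotype cannot be told apart there. Camk2g had the fewest reads of the members, 21 to 192, and the SE of its log2 fold change was 0.314 with all reads and 0.315 after thinning. No paired analysis was possible because the replicate labels are animal tags that the groups do not share. Shares divided by gene length were not run.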
